A study of Mus musculus with 48 samples.

Results

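Creld2 and 7 other genes of the endoplasmic reticulum (ER) stress response, namely Hspa5, Sdf2l1, Pdia4, Hyou1, Manf, Ddit3 and Xbp1, were followed across whole lungs of welding fume- and sham-exposed mice. Members were the probes annotated to these 8 symbols among the 15967 genes named on the array, 1 probe for each gene. The genes were selected on the log2 intensity of Creld2 in GMA-MS- against sham-exposed A/J lungs at 4 weeks, where Creld2 had been called. That comparison is therefore given below for every gene as a description, with no test.

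Male A/J and C57BL/6J (B6) mice, bought at 4 weeks of age, received 4 pharyngeal aspirations of 5 mg/kg fume in phosphate buffered saline (PBS) or of PBS alone. GMA-SS fume came from gas metal arc welding of stainless steel and carries chromium and nickel, GMA-MS fume came from mild steel and is mostly iron, and the PBS-treated mice were the shams. Lungs were collected 4 weeks (28 days) or 16 weeks after the last exposure, which gave 12 groups (A/J GMA-SS, A/J GMA-MS, A/J sham, B6 GMA-SS, B6 GMA-MS and B6 sham at each time) of 4 arrays each, 1 lung to an array. Each of 8 beadchips held 1 array of all 6 groups of 1 time point, so the replicate number is the beadchip number, and time point and beadchip cannot be told apart. All values are log2 intensities after background correction and quantile normalization within a time point unless said otherwise, and p-values measure the spread between arrays.

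In background, the ER folds secreted and membrane proteins, and when unfolded proteins build up there the unfolded protein response raises chaperones, disulfide isomerases and degradation factors while slowing translation. Its 3 sensors are IRE1, which splices Xbp1 mRNA, ATF6, which is cleaved to a transcription factor, and PERK, which acts through ATF4 and Ddit3. Creld2 is an ER-resident protein with disulfide isomerase-like activity whose gene is a known ATF6 target. The ATF6 and XBP1 proteins act through the ER stress response element (ERSE), a CCAAT box and a CCACG box held apart by a fixed spacer.

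Promoter windows running from 250 bases before to 50 bases after the gene start were matched in the RefSeq promoter table (GRCm38.p6) for 6 of the 8 genes, and Hyou1 and Manf were not matched. The ERSE, searched on both strands as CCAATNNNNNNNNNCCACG, was found in 2 of the 6, Creld2 and Hspa5, and in 39 of all 32851 windows (0.119%). These are the windows of the gene on which the results turn and of the chaperone most often used to read ER stress. Capitals mark the ERSE, which lies on the minus strand at -126 to -108 in Creld2 (chr15:88819396-88819695, plus strand) and on the plus strand at -65 to -47 in Hspa5 (chr2:34771840-34772139, plus strand).
Creld2: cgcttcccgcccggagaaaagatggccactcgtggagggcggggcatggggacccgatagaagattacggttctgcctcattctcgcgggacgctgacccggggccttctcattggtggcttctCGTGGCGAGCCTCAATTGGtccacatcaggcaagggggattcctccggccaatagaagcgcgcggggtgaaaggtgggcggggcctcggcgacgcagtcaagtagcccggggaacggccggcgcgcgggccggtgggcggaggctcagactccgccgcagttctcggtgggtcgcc
Hspa5: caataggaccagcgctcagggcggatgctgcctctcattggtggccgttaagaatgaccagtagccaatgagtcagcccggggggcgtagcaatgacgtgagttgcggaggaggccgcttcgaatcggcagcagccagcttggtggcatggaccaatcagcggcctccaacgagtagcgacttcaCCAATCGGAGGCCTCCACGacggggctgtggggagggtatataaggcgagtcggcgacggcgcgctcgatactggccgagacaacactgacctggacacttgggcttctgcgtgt

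Each ERSE holds 1 CCAAT and 1 CCACG, and these single boxes were common. CCAAT stood in 5 of the 6 windows against 37.4% of all windows, and CCACG stood in 4 of 6 against 32.8%. The core of the XBP1-bound unfolded protein response element (TGACGTGG) and the heat shock element core (GAANNTTC) were in 0 of the 6, against 0.676% and 7.86% of all windows. Among 48 other ER stress genes with a window, 8 held the ERSE, namely Calr, Canx, Derl3, Dnajc3, Ero1b, Hsp90b1, Pdia6 and Syvn1. A match is one of letters, not a site.

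Of the 8 genes, 7 were measured on the arrays. Manf, a secreted ER stress-inducible protein, was detected on 0 of 48 arrays at a detection p of 0.01 (its detection p ranged between 0.0353 and 0.432, its log2 intensity between 7.36 and 7.67) and was left out of every comparison. The other 7 were detected on all 48 arrays. Genes were tested where their probe was detected on at least 4 arrays, which left 8687 genes at 4 weeks and 8710 at 16 weeks. Between 9990 and 11421 probes were detected per array at 4 weeks, against 10594 to 11567 at 16 weeks.

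Creld2 was higher in fume-exposed than in sham A/J lungs at 4 weeks. Its log2 intensities on beadchips 1 to 4 were 11.57, 11.41, 11.52 and 11.54 in A/J GMA-SS lungs and 11.42, 11.54, 11.76 and 11.48 in A/J GMA-MS lungs, against 11.07, 11.14, 11.08 and 11.01 in A/J sham lungs. All 8 fume-exposed A/J lungs lay above all 4 A/J sham lungs, and fume arrays lay wholly above sham arrays for 1.15% of all genes under GMA-SS and 1.97% under GMA-MS. Creld2 was chosen for its call under GMA-MS, so the GMA-MS share is a description and no measure of how rare its separation there is. The A/J GMA-MS lungs, whose difference chose the genes, were higher than sham by 0.48 ± 0.08 (log2, SE, n = 4 each), or 1.39-fold. The A/J GMA-SS lungs rose by 0.44 ± 0.08, or 1.35-fold (limma, Benjamini-Hochberg adjusted p = 0.0147, 95% interval 0.27 to 0.61), and were higher on 4 of 4 beadchips, by 0.51, 0.27, 0.44 and 0.53. Both comparisons use the same 4 sham arrays, so the GMA-SS result is not independent of the choice of genes.

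Of the 7 members, 1 passed in the A/J GMA-SS comparison, namely Creld2, and 0.23% of tested genes were called there. In the A/J GMA-MS comparison the call of Creld2 was the ground of the choice, so no count of members is drawn from it; 0.196% of all genes were called there. At an unadjusted p under 0.05 the GMA-SS comparison held 2 members, Creld2 and Xbp1, and 5.01% of all genes. The GMA-SS call depended on single lungs: it held in 2 of the 8 fits that left out 1 array of either group, with adjusted p between 0.0199 and 0.0734 and differences between 0.41 and 0.47. It was lost without A/J sham replicate 1, 3 or 4 or without A/J GMA-SS replicate 1, 3 or 4, and with only the compared groups in the fit (adjusted p = 0.0609). With beadchip as a block and all arrays in the fit, the call was kept (limma adjusted p = 0.00637).

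In B6 lungs at 4 weeks the fume-exposed values of Creld2 lay in a narrow range, and the sham values spread below them. It read 11.61, 11.55, 11.55 and 11.54 in B6 GMA-SS lungs and 11.67, 11.61, 11.58 and 11.58 in B6 GMA-MS lungs, against 11.53, 11.08, 11.51 and 11.31 in B6 sham lungs. No fume-exposed B6 lung fell into the sham range. The GMA-MS difference was 0.25 ± 0.08 (unadjusted p = 0.0057, limma adjusted p = 0.733) and the GMA-SS difference 0.21 ± 0.08 (unadjusted p = 0.0201, adjusted p = 1). On single beadchips the GMA-MS difference was 0.14, 0.53, 0.07 and 0.27. In each of the B6 comparisons 0.0806% of genes were called and 0 of 7 members passed, with 2 members (Creld2 and Sdf2l1) under an unadjusted 0.05 for GMA-MS, as were 3.86% of genes, and 1 (Creld2) for GMA-SS, as were 3.61%. Fume-exposed arrays lay wholly above sham arrays for 1.88% of all genes under GMA-MS and 1.37% under GMA-SS, and Creld2 was the 1 member that did so in either.

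The size of the GMA-SS effect on Creld2 at 4 weeks was not shown to differ between strains: A/J minus B6 was 0.23 ± 0.12 (95% interval -0.01 to 0.47, limma adjusted p = 1). This strain difference uses the A/J sham arrays that entered the choice of genes, so it is not independent of that choice. For GMA-MS, which holds the comparison that chose the genes, the same difference was 0.22 ± 0.12. The fumes themselves, GMA-SS minus GMA-MS, differed by -0.04 in A/J lungs (interval -0.21 to 0.13) and by -0.05 in B6 lungs (-0.22 to 0.12), where 0% of genes were called and 0 of 7 members passed in limma. At an unadjusted p under 0.05 there were also 0 members, against 6.03% of genes in A/J and 2.72% in B6. The A/J difference between the fumes uses the A/J GMA-MS arrays that entered the choice of genes. It is therefore not independent of that choice.

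**Figure D1:**
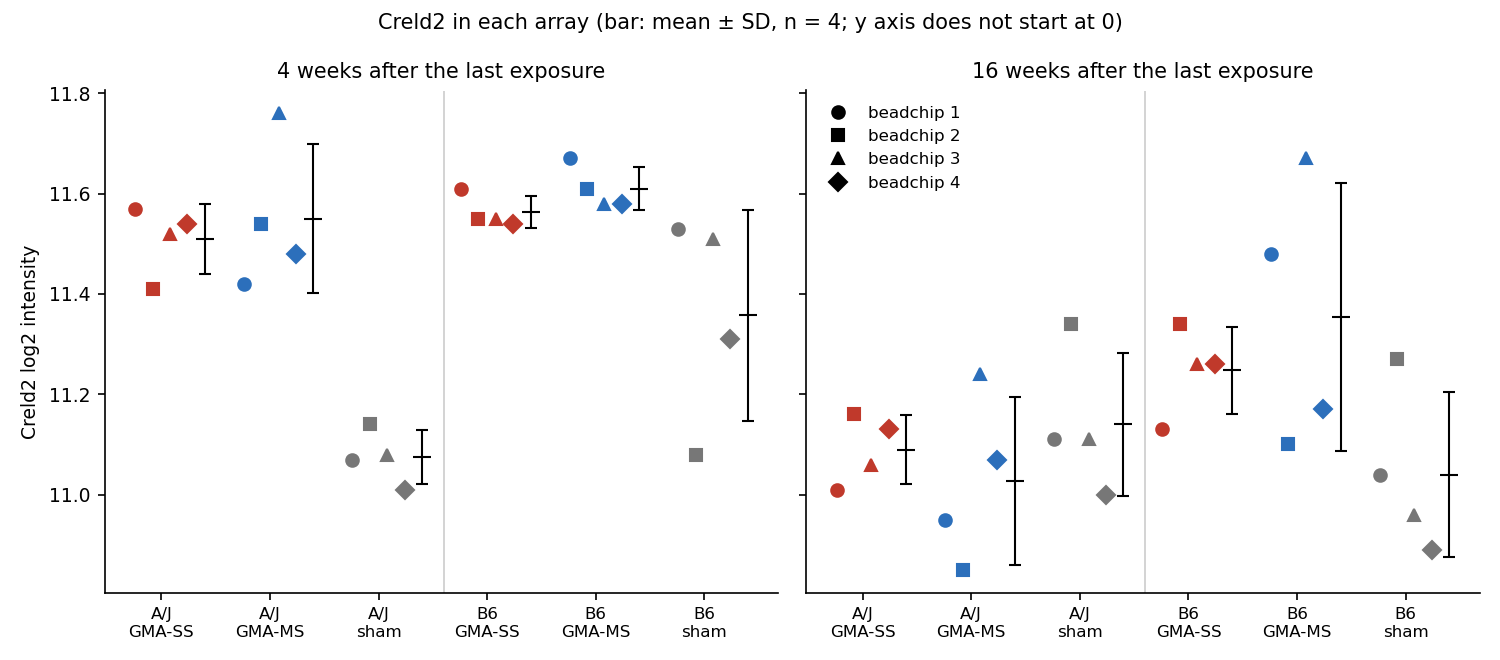
Creld2 log2 intensity (y axis) of every array in each strain, treatment and time group (x axis), with the group mean and SD (n = 4). At 4 weeks the A/J sham arrays, between 11.01 and 11.14, sit below all A/J fume-exposed arrays, which start at 11.41.

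At 16 weeks the A/J groups overlapped in Creld2. It read 11.01, 11.16, 11.06 and 11.13 in A/J GMA-SS lungs and 10.95, 10.85, 11.24 and 11.07 in A/J GMA-MS lungs, against 11.11, 11.34, 11.11 and 11 in A/J sham lungs. Sham replicate 2 was the highest of the 12 lungs, and the differences from sham were -0.05 (95% interval -0.28 to 0.18) for GMA-SS and -0.11 (-0.34 to 0.11) for GMA-MS.

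B6 lungs at 16 weeks gave 11.13, 11.34, 11.26 and 11.26 under GMA-SS and 11.48, 11.10, 11.67 and 11.17 under GMA-MS, against 11.04, 11.27, 10.96 and 10.89 in B6 sham lungs. The groups overlapped through sham replicate 2. The GMA-MS difference of 0.32 ± 0.11 did not pass (unadjusted p = 0.00825, limma adjusted p = 0.295), nor did the GMA-SS difference of 0.21 ± 0.11 (adjusted p = 1). For the GMA-MS effect at 16 weeks, A/J minus B6 was -0.43 ± 0.15 (unadjusted p = 0.0108, adjusted p = 0.551).

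Set against each other, the times differed in A/J lungs by -0.48 ± 0.14 for the GMA-SS effect (16 weeks minus 4 weeks, unadjusted p = 0.00137, limma adjusted p = 0.734) and by -0.59 ± 0.14 for the GMA-MS effect, which holds the comparison that chose the genes. In B6 lungs the same differences were 0.01 ± 0.14 and 0.08 ± 0.14. The A/J GMA-SS time difference shares its 4-week A/J sham arrays with the comparison that chose the genes, and is not independent of it. Leaving aside the A/J GMA-MS time difference and the GMA-MS strain difference at 4 weeks, which hold that comparison, 0 of 7 members passed in the other 3 time differences and the other 3 strain differences (limma). Of all genes, 0.115% were called for the GMA-MS strain difference at 16 weeks and 0% for the rest. At an unadjusted p under 0.05 stood Creld2 and Ddit3 for the A/J GMA-SS time difference, as did 4.14% of all genes, and 0 members for the B6 GMA-SS and GMA-MS time differences, against 3.31% and 3.04%. For the strain differences they were Creld2, Pdia4 and Ddit3 for GMA-MS at 16 weeks (7.11% of genes), Ddit3 for GMA-SS at 16 weeks (3.38%) and 0 members for GMA-SS at 4 weeks (1.77%).

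Ordered by their mean after normalization over all 48 arrays, the 12 groups ran between 11.52 in B6 GMA-MS lungs at 16 weeks and 10.94 in A/J sham lungs at 4 weeks. Of the 11 neighbouring pairs in that order, 9 differed by no more than the larger SD of the pair. The widest gap, 0.23, separated the A/J sham lungs at 4 weeks from the A/J GMA-MS lungs at 16 weeks, the next lowest group. This order crosses time points and therefore beadchips.

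Hspa5 encodes BiP, the ER's main HSP70 chaperone, which also holds the stress sensors inactive. At 4 weeks it read 10.46, 10.82, 10.25 and 11.02 in A/J GMA-SS lungs and 10.25, 11.30, 10.89 and 10.99 in A/J GMA-MS lungs, against 9.97, 10.86, 9.77 and 10.37 in A/J sham lungs. The groups overlapped, since the sham lung of beadchip 2 lay inside both fume ranges. The GMA-MS difference was 0.62 ± 0.27, with 0.29, 0.44, 1.12 and 0.62 on the 4 beadchips, and the GMA-SS difference was 0.39 ± 0.27 (limma adjusted p = 1), with 0.49, -0.04, 0.48 and 0.65. With beadchip as a block the SE of both was 0.16, and the GMA-SS difference was still not called (limma unadjusted p = 0.023, adjusted p = 0.318).

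The B6 values of Hspa5 at 4 weeks, 10.64, 10.89, 9.94 and 10.89 for GMA-SS and 10.14, 10.69, 10.13 and 11.06 for GMA-MS, straddled those of B6 sham, 10.31, 10.42, 10.31 and 10.72. Differences were 0.15 ± 0.27 and 0.07 ± 0.27 (adjusted p = 1 each). With beadchip as a block the SE of both was 0.16 (limma adjusted p = 0.774 and 0.93). At 16 weeks all 4 fume differences lay between -0.12 and 0.05. In the normalization over all arrays the 6 groups of 4 weeks (means of 10.12 to 10.73) stood above the 6 groups of 16 weeks (9.62 to 9.80), shams included, and this gap cannot be told apart from the change of beadchips.

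Hyou1 is an HSP110-type exchange factor for BiP, Sdf2l1 a small partner of BiP and its J-domain co-chaperones, and Pdia4 an ER disulfide isomerase. None of the 3 was called between fume and sham at either time. Their A/J differences at 4 weeks were 0.11 (Hyou1), 0.10 (Sdf2l1) and 0.12 (Pdia4) for GMA-SS and 0.11, 0.05 and -0.01 for GMA-MS. Sdf2l1 and Pdia4 in B6 GMA-MS lungs at 16 weeks were the 2 members without overlap there, in a comparison in which fume arrays lay wholly above sham arrays for 3.62% of genes.

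For Sdf2l1 these lungs read 8.57, 8.45, 8.66 and 8.48, against 8.27, 8.33, 8.35 and 8.34 in B6 sham lungs, a difference of 0.22 ± 0.09 (unadjusted p = 0.0255, limma adjusted p = 0.448). For Pdia4 they read 10.81, 10.77, 10.96 and 10.75, against 10.42, 10.67, 10.72 and 10.68, a difference of 0.20 ± 0.10 (adjusted p = 0.541). The low Pdia4 sham value is replicate 1, and the remaining sham lungs lay within 0.1 of the lowest fume-exposed lung.

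Xbp1 encodes the transcription factor whose mRNA IRE1 splices, and the probe value does not separate spliced from unspliced mRNA here. At 4 weeks it read 14.78, 14.54, 14.43 and 14.50 in A/J GMA-SS lungs and 14.57, 14.57, 14.47 and 14.44 in A/J GMA-MS lungs, against 14.36, 14.29, 14.37 and 14.25 in A/J sham lungs. Like Creld2, it was higher in all 8 fume-exposed A/J lungs than in any sham lung, and the margins were narrower. The GMA-SS difference was 0.25 ± 0.09 (unadjusted p = 0.00989, limma adjusted p = 0.558) and the GMA-MS difference 0.19 ± 0.09. Creld2 and Xbp1 were the 2 members whose A/J GMA-SS arrays lay wholly above A/J sham arrays at 4 weeks, a pattern held by 1.15% of genes.

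In B6 lungs at 4 weeks Xbp1 read 14.61, 14.61, 14.59 and 14.58 for GMA-SS and 14.86, 14.75, 14.70 and 14.64 for GMA-MS, against 14.87, 14.38, 14.59 and 14.42 in sham. Sham replicate 1 was as high as any fume-exposed lung, and the differences were 0.03 ± 0.09 and 0.17 ± 0.09 (limma adjusted p = 1 each). At 16 weeks the 4 differences of Xbp1 ran between -0.08 and 0.19, all uncalled.

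Ddit3 encodes CHOP, the factor downstream of PERK and ATF4 that is linked to cell death under lasting stress. At 4 weeks its fume differences were 0.14 ± 0.17 (GMA-SS) and 0.08 ± 0.17 (GMA-MS) in A/J lungs and 0.08 ± 0.17 and 0.28 ± 0.17 in B6 lungs, with every pair of groups overlapping. At 16 weeks Ddit3 read 9.12, 9.52, 9.72 and 9.49 in A/J GMA-SS lungs and 9.43, 9.55, 9.64 and 9.44 in A/J GMA-MS lungs, against 9.80, 9.84, 9.79 and 9.61 in A/J sham lungs. Among the fume-exposed lungs only GMA-SS replicate 3 and GMA-MS replicate 3 reached above the lowest sham lung. The differences were -0.29 ± 0.11 (unadjusted p = 0.0162, limma adjusted p = 0.675) and -0.25 ± 0.11 (unadjusted p = 0.0405, adjusted p = 0.566).

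B6 values of Ddit3 at 16 weeks stood the other way, at 9.91, 10.15, 9.74 and 9.88 for GMA-SS and 9.93, 9.79, 10.04 and 9.82 for GMA-MS, against 9.74, 10.02, 9.50 and 9.72 in B6 sham. Both B6 groups overlapped sham, with differences of 0.17 ± 0.11 and 0.15 ± 0.11. A/J minus B6 for the GMA-SS effect was -0.47 ± 0.16 (95% interval -0.80 to -0.14, unadjusted p = 0.00773, limma adjusted p = 1) and did not pass.

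Across the 4 fume comparisons at 16 weeks, 0 of 7 members passed, and 0.0344% (A/J GMA-SS), 0.023% (A/J GMA-MS), 0% (B6 GMA-SS) and 0.149% (B6 GMA-MS) of genes were called. At an unadjusted p under 0.05 there were 1, 1, 0 and 2 members, against 5.9%, 8.43%, 4.09% and 9.45% of genes, namely Ddit3 in both A/J comparisons and Creld2 and Sdf2l1 for B6 GMA-MS. GMA-SS minus GMA-MS at 16 weeks gave 0 of 7 in both strains, where 0% (A/J) and 0.0574% (B6) of genes were called, and 1 member (Pdia4 in A/J, 0.22 ± 0.10, unadjusted p = 0.0367, adjusted p = 1) stood under an unadjusted 0.05, as did 4.58% of genes in A/J and 5.24% in B6.

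As a list, the 7 genes sat above 0 in 7 of 7 cases in A/J GMA-SS lungs at 4 weeks, where 41% of all genes did, with a median difference of 0.14 against -0.02 over all genes. The medians were 0.08 for B6 GMA-SS and 0.19 for B6 GMA-MS, with 6 and 7 genes above 0, where 52.1% and 53.8% of all genes were. For A/J GMA-MS at 4 weeks, the comparison that chose the genes, no median or count is drawn. At 16 weeks the A/J medians were -0.05 (GMA-SS, 3 genes above 0 against 43.5% of all genes) and -0.08 (GMA-MS, 1 gene against 52.2%), and the B6 medians were 0.17 (GMA-SS, 7 genes against 46.7%) and 0.15 (GMA-MS, 6 genes against 52.3%). All-gene medians there were between -0.01 and 0.01. The genes were chosen with these values known, and the 2 fumes of a strain and time share their sham arrays.

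**Figure D2:**
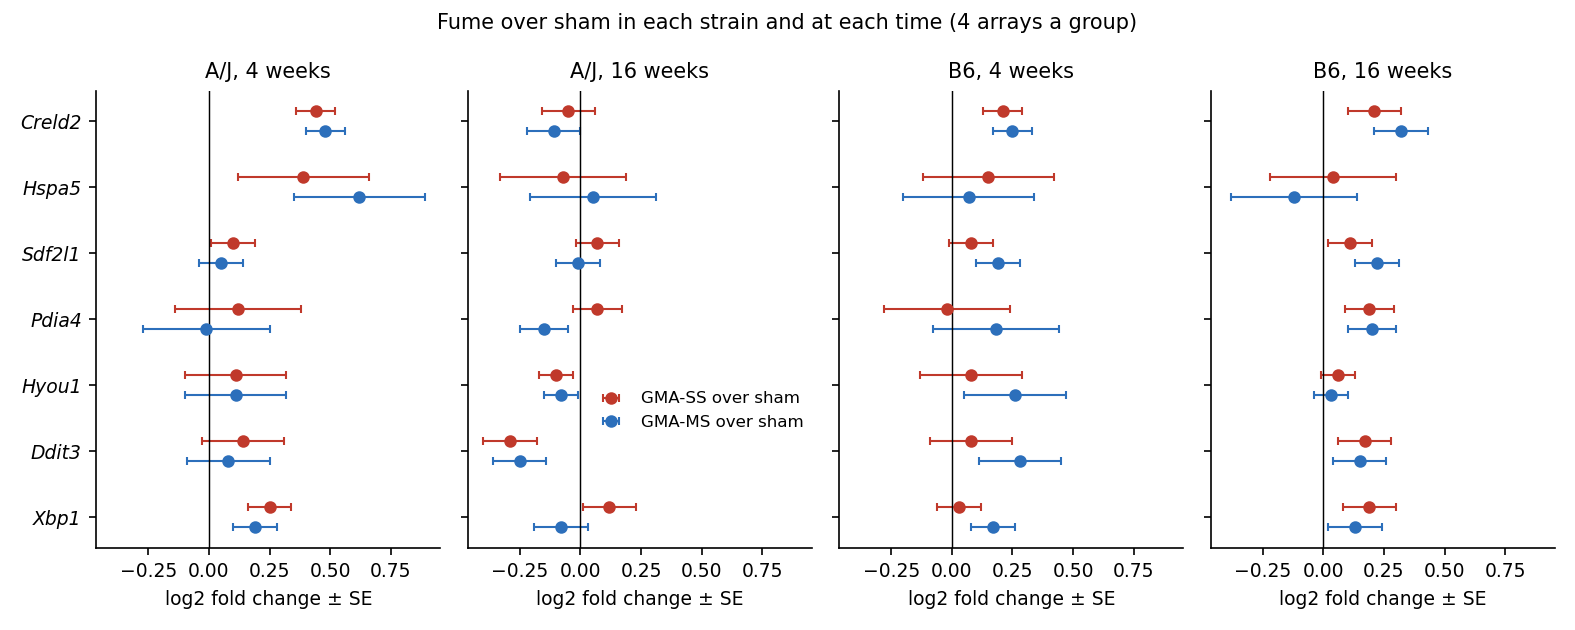
Fume over sham log2 fold change (x axis) of each of the 7 measured genes (rows) in 4 panels for A/J and B6 lungs at 4 and 16 weeks, GMA-SS above GMA-MS in each row, with the SE of the limma fit as bars (n = 4 a group). Hspa5 has the longest bars (SE 0.27 at 4 weeks), and Creld2 in A/J lungs stands at 0.44 and 0.48 at 4 weeks and at -0.05 and -0.11 at 16 weeks.

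At 4 weeks Hspa5, Pdia4, Hyou1 and Ddit3 differed between beadchips in every group. Pdia4 averaged 10.63, 11.31, 10.60 and 11.21 on beadchips 1 to 4 over the 6 groups. Its 12 arrays on beadchips 2 and 4 read between 11.05 and 11.42, and its 12 arrays on beadchips 1 and 3 between 10.42 and 10.88, with no overlap in any of the 6 groups. Hyou1 averaged 8.29, 8.82, 8.25 and 8.74 and Hspa5 10.29, 10.83, 10.22 and 10.84, and both were higher on beadchips 2 and 4 in 6 of 6 groups.

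Ddit3 ran opposite, at 10.14, 9.67, 9.99 and 9.73, and was lower on beadchips 2 and 4 in 6 of 6 groups. The adjusted p of the beadchip term in limma was 1.07e-08 for Pdia4, 3.95e-07 for Hyou1, 0.000258 for Hspa5 and 0.000122 for Ddit3, in a fit in which 59.4% of all genes were called for beadchip. The range of beadchip means was 0.71 for Pdia4 and 0.63 for Hspa5, and 1.76% and 3.17% of genes had a wider one. Creld2 had a range of 0.11 (adjusted p = 0.297) and Sdf2l1 of 0.14 (adjusted p = 0.15), below the median range of all genes, 0.21. Xbp1 had a range of 0.20, also under that median, and its beadchip term was called (adjusted p = 0.0161).

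At 16 weeks the beadchip pattern differed. Hspa5 averaged 9.72, 9.86, 9.12 and 9.60, low on beadchip 3, and 0.769% of genes had a wider range. Pdia4 and Xbp1 also differed between beadchips (limma adjusted p = 0.0226 and 0.0283, where 23.1% of genes were called). Since all 6 groups of a time point shared each beadchip, these shifts widen the spread within groups and do not separate the groups. The within-group SD of Hspa5 at 4 weeks was 0.41 and that of Pdia4 0.39, against 0.11 for Creld2.

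**Figure D3:**
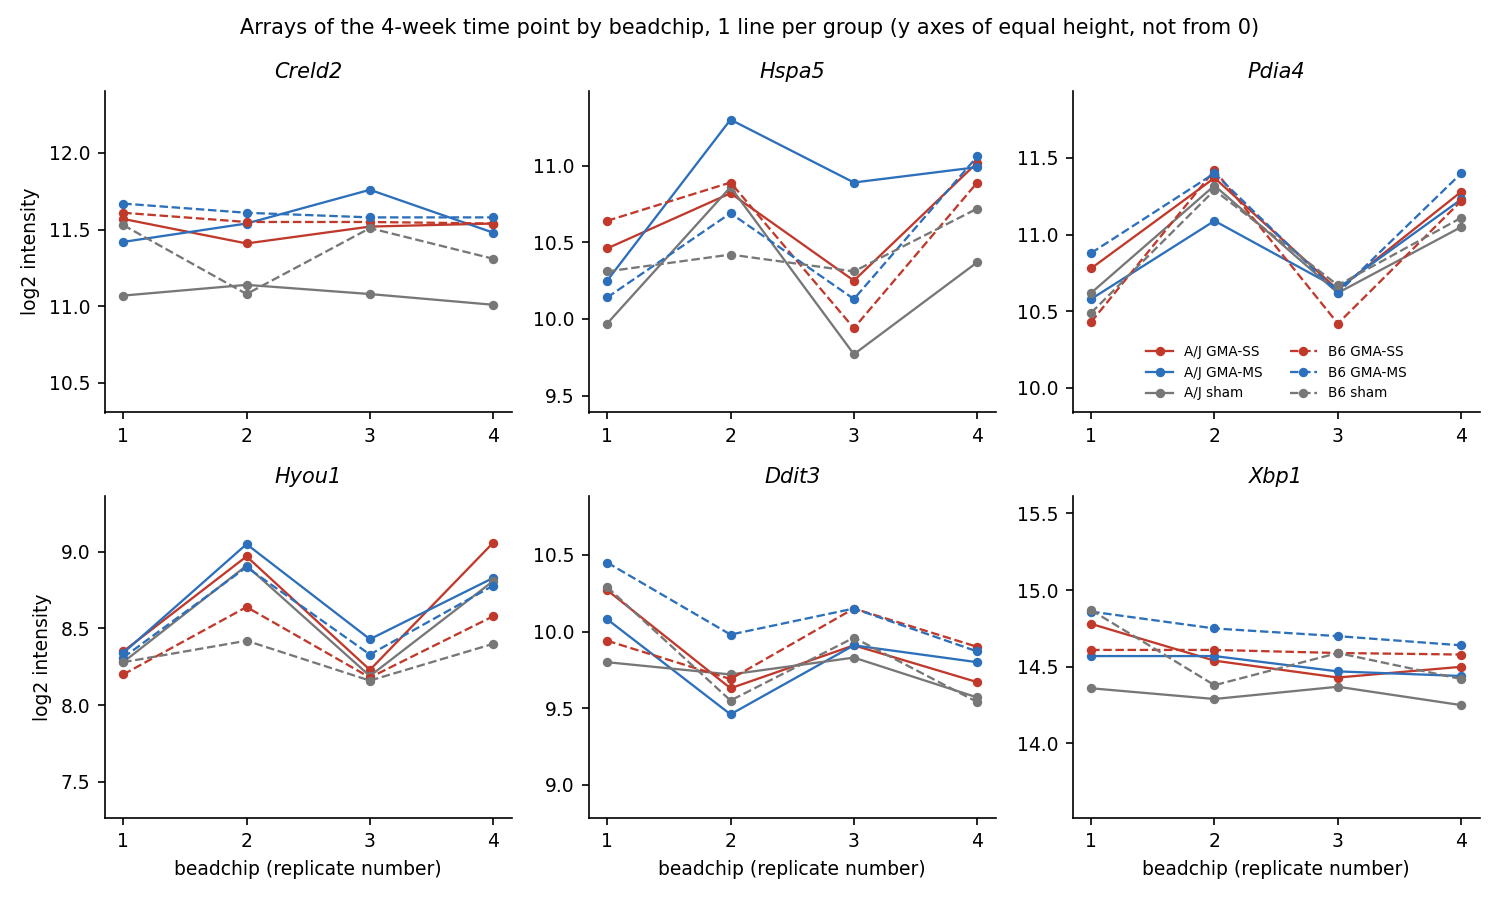
Log2 intensity (y axis, of equal height in each panel) of Creld2, Hspa5, Pdia4, Hyou1, Ddit3 and Xbp1 on the 4 beadchips at 4 weeks (x axis), with 1 line for each of the 6 groups. Pdia4, Hyou1 and Hspa5 are high on beadchips 2 and 4, Ddit3 is low on them, and the Creld2 means differ by 0.11.

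How the genes varied together depended on the beadchips. With group means removed over the 48 arrays, Pdia4 and Hyou1 had a Pearson r of 0.84, Hspa5 and Hyou1 of 0.54, Hspa5 and Pdia4 of 0.53, and Creld2 and Hspa5 of 0.14. Ddit3 stood at -0.52 to both Pdia4 and Hyou1. The sign differed by time, at -0.74 and -0.72 within 4 weeks and 0.34 and 0.32 within 16 weeks. Hspa5 and Hyou1 had an r of 0.86 within 4 weeks and -0.20 within 16 weeks. For Hspa5 and Pdia4 these were 0.81 and -0.04, and for Pdia4 and Hyou1 0.87 and 0.62. These are descriptions, since arrays share beadchips and normalization. With group and beadchip means both removed, Pdia4 and Hyou1 had an r of 0.10 (-0.29 within 4 weeks and 0.61 within 16 weeks). Hspa5 and Pdia4 then had an r of 0.47 (0.12 and 0.83), and Ddit3 and Pdia4 of 0.33 (0.29 and 0.37). Creld2 and Hspa5 had an r of 0.74 (0.79 within 4 weeks and 0.75 within 16 weeks).

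Creld2 then correlated with Sdf2l1 at 0.58, with Hyou1 at 0.48, with Ddit3 at 0.46, with Pdia4 at 0.41 and with Xbp1 at 0.33. Among the other 8943 genes, Hspa5 ranked 1 in likeness to Creld2 on this scale, Sdf2l1 23, Hyou1 104, Ddit3 149, Pdia4 292 and Xbp1 634. With group means alone removed, the ranks were 2171 for Hspa5, 157 for Sdf2l1 and 39 for Ddit3.

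**Figure D4:**
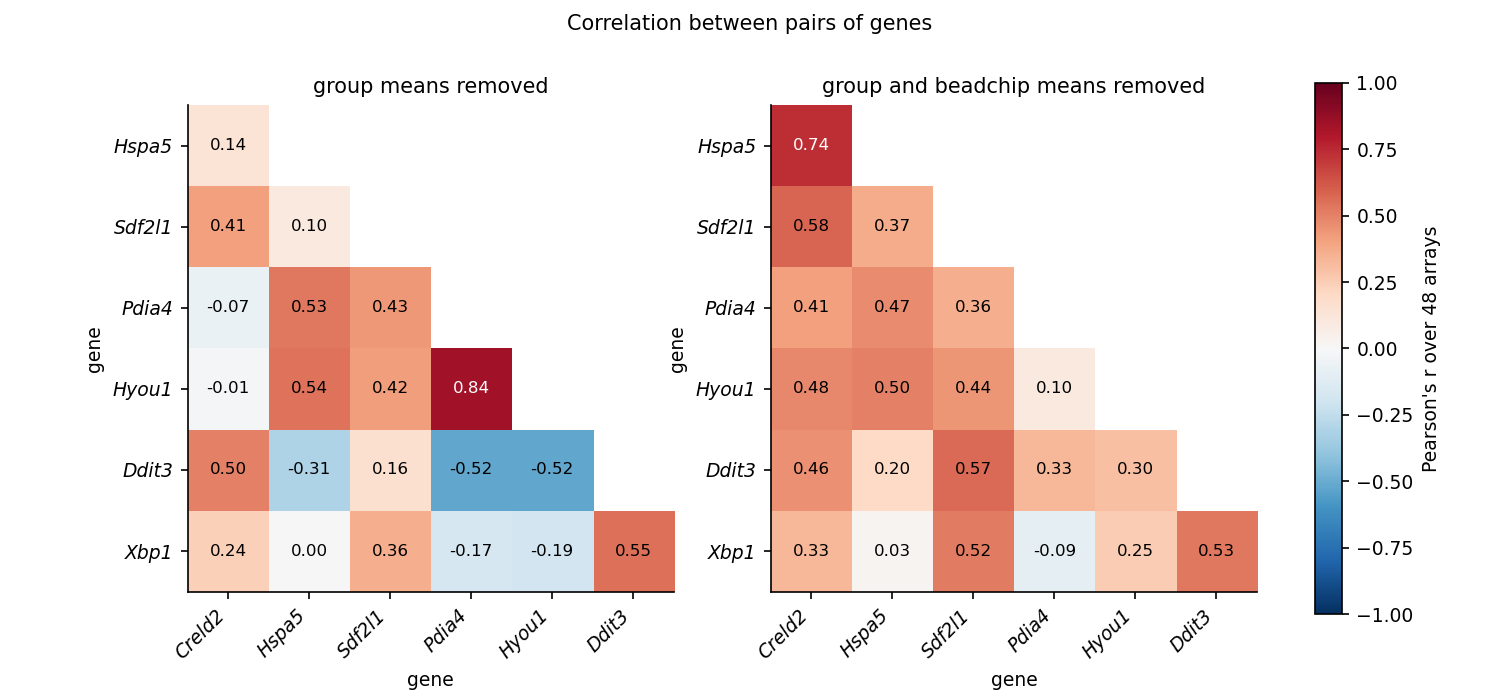
Pearson r between each pair of the 7 genes over 48 arrays, with group means removed in one panel and group and beadchip means removed in the other. Creld2 and Hspa5 stand at 0.14 in one and 0.74 in the other, and Pdia4 and Hyou1 at 0.84 and 0.10.

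By the rule fixed for likeness (group means removed, 48 arrays), the 10 genes most like Creld2 were Fkbp4 (r = 0.77), Tmem33 (0.69), Ahsa1 (0.63), Tubgcp4 (0.63), Pdia3 (0.62), A430005L14Rik (0.60), Zfp326 (0.59), Rab11a (0.58), Kat8 (0.58) and H2bc12 (0.57). Fkbp4 and Ahsa1 encode HSP90 co-chaperones, Pdia3 an ER disulfide isomerase for glycoproteins and Tmem33 an ER membrane protein. Fkbp4 differed from sham in A/J lungs at 4 weeks by 0.17 ± 0.08 (GMA-SS) and 0.14 ± 0.08 (GMA-MS), less than Creld2 did, and at 16 weeks by -0.14 ± 0.10 and -0.18 ± 0.10. Ahsa1 stood at 0.20 ± 0.08 and 0.18 ± 0.08, and at 16 weeks at -0.15 ± 0.08 and -0.16 ± 0.08. The lowest limma adjusted p of the 10 genes over the 8 fume comparisons was 0.146 (Zfp326, A/J GMA-MS at 16 weeks).

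Sham lungs of the 2 strains also differed in these genes. Creld2, with the array values given above, was lower in A/J sham than in B6 sham lungs at 4 weeks, with a difference of -0.28 ± 0.08 (1.22-fold lower, limma adjusted p = 0.0162). The groups overlapped, since B6 sham replicate 2 at 11.08 lay inside the A/J range, and on the 4 beadchips the differences were -0.46, 0.06, -0.43 and -0.30. The call was lost without B6 sham replicate 1 or 3 or A/J sham replicate 4 (adjusted p up to 0.0743) and with only the compared groups in the fit (0.117). At 16 weeks the difference was 0.10 ± 0.11 (adjusted p = 0.554). The A/J sham arrays of 4 weeks are the same as those in the A/J fume comparisons.

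Xbp1 at 4 weeks lay lower in A/J sham than in B6 sham lungs on 4 of 4 beadchips, with differences of -0.50, -0.09, -0.22 and -0.17 and no overlap, as for 9.97% of all genes. Its difference of -0.25 ± 0.09 had a limma adjusted p of 0.0503, and of 0.00661 with beadchip as a block. At 16 weeks it differed by 0.04 ± 0.11.

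Hyou1 at 16 weeks was higher in A/J sham lungs, at 8.20, 8.11, 8.25 and 8.34, against 7.80, 8.06, 8 and 7.98 in B6 sham lungs. No A/J value reached down to a B6 value, as for 14.8% of all genes (Sdf2l1 and Pdia4 among them). The difference was 0.27 ± 0.07, or 1.20-fold (limma adjusted p = 0.00377), and was called in all 8 fits that left out 1 array. Hyou1 lay little above background at 16 weeks, with a detection p between 0.00122 and 0.00852 against the cut of 0.01. Under scaling of the raw signal to the median of probes detected on every array, in place of background correction and quantile normalization, the difference was -0.23 (adjusted p = 0.556), so its direction rests on that choice. At 4 weeks Hyou1 differed by 0.23 ± 0.21 (adjusted p = 0.546, and 0.0356 with beadchip as a block).

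Pdia4 at 16 weeks read 10.77, 10.85, 10.92 and 11.02 in A/J sham lungs, against 10.42, 10.67, 10.72 and 10.68 in B6 sham lungs. The A/J values were higher on 4 of 4 beadchips with no overlap, and the difference was 0.27 ± 0.10 (limma adjusted p = 0.0533, and 0.00981 with beadchip as a block). Between sham strains 19% of genes were called at 4 weeks and 27.7% at 16 weeks, and 1 of 7 members passed at each time (Creld2 lower at 4 weeks, Hyou1 higher at 16 weeks), so the members were not called more often than other genes were. With the block, 3 members passed at 4 weeks (Creld2, Xbp1, Hyou1) where 32.2% of genes did, and 2 at 16 weeks (Pdia4, Hyou1) where 32.8% did. Each gene was read by 1 probe, and the part of strain differences in the sequence under the probe was not tested.

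**Figure D5:**
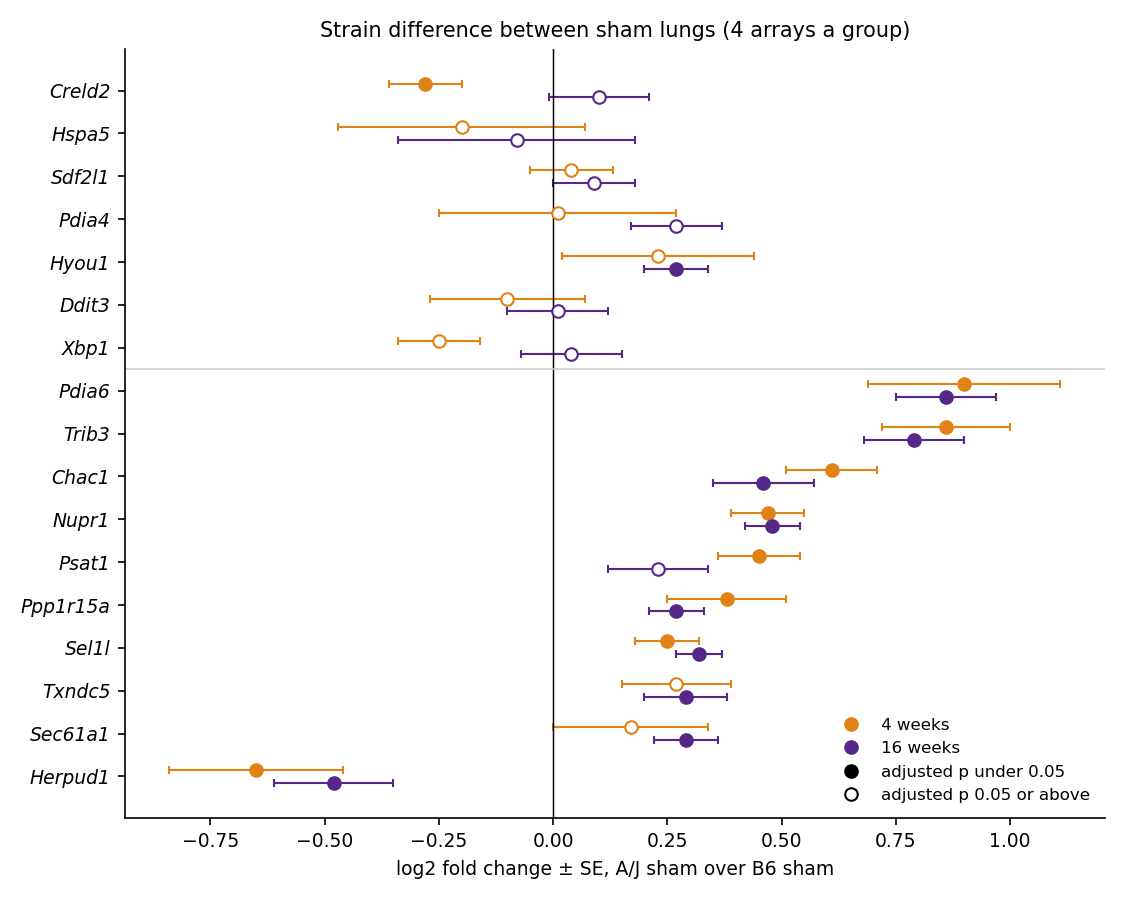
A/J sham over B6 sham log2 fold change with its SE (x axis) at 4 and 16 weeks for the 7 measured genes and, under the line, the pathway genes called at either time, filled where the limma adjusted p is under 0.05 (n = 4 arrays a group). Creld2 at 4 weeks (-0.28) and Hyou1 at 16 weeks (0.27) are the filled members, and the direction of Hyou1 turns under scaling to the median.

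Other genes of the pathway were taken as lists of 54 genes (sensors and their proteases, chaperones, isomerases, ER-associated degradation, translocon and the ATF4 branch), of which 50 were on the array and 36 were tested at each time. Outside the comparison that chose the members, 0 of 36 passed in each of the 7 other fume comparisons, and between 2 and 7 stood under an unadjusted 0.05. In A/J lungs these were 3 (GMA-SS, 5.01% of all genes) at 4 weeks and 2 (GMA-SS, 5.9%) and 3 (GMA-MS, 8.43%) at 16 weeks. In B6 lungs they were 2 (GMA-SS, 3.61%) and 6 (GMA-MS, 3.86%) at 4 weeks and 7 (GMA-SS, 4.09%) and 7 (GMA-MS, 9.45%) at 16 weeks. In A/J GMA-MS lungs at 4 weeks Chac1, an ATF4 target that degrades glutathione, read 9.96, 10.12, 10.02 and 9.98, against 9.51, 9.57, 9.52 and 9.62 in A/J sham lungs, a difference of 0.46 ± 0.10. Herpud1, an ER-associated degradation scaffold, differed in A/J GMA-SS lungs at 4 weeks by 0.56 ± 0.19 (limma adjusted p = 0.506).

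In B6 GMA-MS lungs at 4 weeks Chac1 differed by 0.42 ± 0.10, Trib3, a pseudokinase induced through ATF4 and CHOP, by 0.44 ± 0.14, and Atf3 by -0.53 ± 0.14. These 3 passed only with beadchip as a block, where 0.46% of genes did (limma adjusted p = 0.0238, 0.0239 and 0.0496, against 0.152, 0.687 and 0.263 without it). Atf3 read 7.54, 7.78, 7.71 and 7.95 there, against 8.14, 8.85, 7.90 and 8.20 in B6 sham lungs. These values lie near those of undetected Manf at 4 weeks (7.48 to 7.67). Atf3 is also counted among the immediate early genes given below. At 16 weeks Trib3 was again 0.45 ± 0.11 in B6 GMA-MS lungs (adjusted p = 0.129, and 0.000921 with the block, where 0.574% of genes passed). Ppp1r15a, the phosphatase subunit that restores translation, stood at -0.31 ± 0.06 in A/J GMA-SS lungs at 16 weeks (adjusted p = 0.0557).

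Between sham strains the pathway genes were called in total about as often as all genes, but mostly as higher in A/J. At 4 weeks 7 of 36 were higher and 1 lower in A/J, and at 16 weeks 8 were higher and 1 lower. The ATF4 branch (11 tested) held 5 of the higher calls at 4 weeks and 4 at 16 weeks, and 0 lower. Of all genes, 9.15% were higher and 9.82% lower at 4 weeks, and 14.8% and 12.9% at 16 weeks. Pdia6, a disulfide isomerase, was higher in A/J sham lungs by 0.90 (limma adjusted p = 0.00314) and 0.86 at 4 and 16 weeks, and Trib3 by 0.86 (adjusted p = 8.02e-05) and 0.79. Herpud1 was lower, with differences of -0.65 (adjusted p = 0.0155) and -0.48 (adjusted p = 0.00556). Of the ERSE-bearing genes, Ero1b, Hsp90b1, Pdia6 and Syvn1 were tested, and Pdia6 was the 1 called between sham strains.

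Fewer cells of a type and less RNA per cell cannot be told apart in whole lung. Lung epithelial markers were present, with 8 of 8 tested at 4 weeks and 7 of 8 at 16 weeks. Plasma cells, which are rich in ER chaperones, had 4 of 9 markers tested at 4 weeks, with Jchain, Tnfrsf13b and Prdm1 among those not tested. Their summed level then ran 11.36 to 11.63 in A/J GMA-SS, 11.14 to 11.63 in A/J GMA-MS and 11.17 to 11.78 in A/J sham lungs. Those ranges overlapped. At 16 weeks, with 5 of 9 markers tested, both A/J fume groups lay narrowly above sham. They ran 11.44 to 11.97 (GMA-SS) and 11.44 to 11.67 (GMA-MS), against 11.07 to 11.43, and no marker was called. The B6 groups overlapped then, at 11.47 to 11.73, 11.55 to 11.83 and 11.49 to 11.67 in GMA-SS, GMA-MS and sham lungs.

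Squamous epithelial genes (8 of 8 tested), which lung tissue itself should hold little of, were high on some arrays and low on others in most groups at 4 weeks. Their summed level read 15.70, 15.85, 16.30 and 16.09 in A/J GMA-SS and 10.62, 15.78, 15.84 and 15.18 in A/J GMA-MS, against 16.52, 16.03, 15.42 and 10.51 in A/J sham lungs. In B6 lungs it read 10.61, 10.61, 10.53 and 15.03 in GMA-SS and 16.18, 10.49, 10.53 and 10.60 in GMA-MS, against 15.37, 16.08, 10.51 and 15.50 in sham lungs. The list's median difference from sham was 0.91 (A/J GMA-SS, 8 of 8 above 0), -0.14 (A/J GMA-MS, 0 of 8), -1.71 (B6 GMA-SS, 0 of 8) and -1.26 (B6 GMA-MS, 0 of 8). At 16 weeks the lowest and highest levels over the 6 groups were 10.39 and 15.94.

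The summed level of circadian clock genes (8 of 12 tested) at 4 weeks ran 14.35 to 14.46 in A/J GMA-SS and 14.58 to 14.94 in A/J GMA-MS, against 14 to 14.36 in A/J sham lungs. In B6 lungs it ran 14.01 to 14.32 in GMA-SS and 14.17 to 14.35 in GMA-MS, against 13.96 to 14.15 in sham lungs. The GMA-MS lungs of both strains thus lay above their shams. A/J GMA-SS lungs overlapped sham only through GMA-SS replicate 4 at 14.35 and sham replicate 2 at 14.36, and B6 GMA-SS lungs overlapped sham more widely. By the list's median difference from sham the A/J fumes were alike, at 0.36 for GMA-SS (6 of 8 genes above 0) and 0.33 for GMA-MS (5 of 8). The B6 medians were 0.01 for GMA-SS and 0.16 for GMA-MS. Cytosolic heat shock genes (5 of 11 tested) ran 15.05 to 15.22, 14.66 to 15.30 and 14.74 to 15.25 in A/J GMA-SS, A/J GMA-MS and A/J sham lungs at 4 weeks. At 16 weeks both A/J fume groups lay below sham, at 14.45 to 14.54 (GMA-SS) and 14.34 to 14.53 (GMA-MS) against 14.65 to 15.10. The B6 groups overlapped then, at 14.87 to 15.22, 14.65 to 15.07 and 14.84 to 15.27 in GMA-SS, GMA-MS and sham lungs. In B6 lungs at 4 weeks the immediate early genes ran 12.93 to 13.24 in GMA-SS and 13.02 to 13.22 in GMA-MS, against 13.87 to 14.34 in sham lungs. The part of any of these in the Creld2 differences was not tested.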

How the data were processed

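Biotin-labelled cRNA of whole lung was hybridised to 48 MouseRef-8 v1.1 arrays. The authors exported mean probe intensity, detection p-value and bead number per array from BeadStudio, and also deposited log2 values after their own normalization. From the deposited intensities, 24613 probes were background-corrected by normexp with negative-control parameters inferred from the detection p-values (offset 16), quantile normalized and log2 transformed (neqc, limma 3.58.1, R 4.3.3), within each time point for the group comparisons and over all 48 arrays for time differences, orders and correlations. Of the probes, 20984 had 1 gene symbol, 1 several and 3628 none, and for a gene with several probes the brightest on average over all arrays was kept. Genes were kept where detected at p of 0.01 or less on 4 or more arrays.

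Groups were compared with lmFit and eBayes over the 6 groups of a time point, two-sided, with Benjamini-Hochberg adjustment over all tested genes and a threshold of 0.05. Errors beside differences are SE and intervals are 95%. The number of arrays limits the precision, and probes carried 34 to 36 beads at the median. Replicate numbers paired the arrays: same-numbered arrays shared a beadchip per the labels, and their deviations from group means correlated at 0.351 at 4 weeks (0.258 to 0.434 by beadchip, -0.119 between beadchips) and 0.137 at 16 weeks (0.0484 to 0.223, -0.0459 between). Alternatives tried were beadchip as a block, only the compared groups, other normalizations, other filters, the deposited log2 values and leaving out each array. The tests were checked on simulated data. Named genes were the 8 members, the 10 genes most like Creld2 and pathway genes that were called, or otherwise the 3 with the largest difference of a comparison with sham. Members and lists were chosen with earlier results of these data known. Promoter windows came from RefSeq (GRCm38.p6), and motifs were searched in Python.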

Additional observations from a re-analysis of the deposited data

Results flagged for a closer look

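Within the 84 groups of 4 arrays formed by 7 genes and 12 groups, 3 arrays stood apart from the others of their group, meaning that the gap to the nearest array over the whole range of the group passed the 95% critical value of Dixon. Chance alone would give about 5% of groups. Creld2 in B6 GMA-SS replicate 1 at 4 weeks read 11.61, against 11.54 to 11.55 in the other 3 (gap share 0.901). Sdf2l1 in A/J GMA-MS replicate 2 at 4 weeks read 8.66, against 8.47 to 8.48 (0.966). Pdia4 in B6 sham replicate 1 at 16 weeks read 10.42, against 10.67 to 10.72 (0.844), and this array enters both the B6 GMA-MS and the sham strain comparison of Pdia4.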

How the results depend on the processing

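Of 31 results followed over 11 settings and each array left out, those that hold the comparison behind the choice of genes aside, 518 values kept direction and side of the threshold, 11 lost and 8 gained the call, 9 turned and 1 moved. The same comparison is left out of the counts that follow. Members called between fume and sham at 4 weeks numbered 1 (Creld2, A/J GMA-SS), and 0 with only the compared groups in the fit. Leaving out 1 array gave 0 to 1, with 0 without A/J sham replicate 1, 3 or 4 or A/J GMA-SS replicate 1, 3 or 4. Between sham strains 2 calls became 1 under scaling to the median and 5 with the replicate block, and 1 to 3 with 1 array left out (1 without B6 sham replicate 1 or 3 or A/J sham replicate 4 of 4 weeks, 3 without A/J sham replicate 1 of 16 weeks or B6 sham replicate 2 or 4 of 4 weeks). Pathway genes called between fume and sham numbered 0, but 1 with no filter or with every probe kept, 4 with the replicate block, and 0 to 1 with 1 array left out (1 at 16 weeks without B6 GMA-MS replicate 1 or 2, B6 GMA-SS replicate 3, A/J sham replicate 3 or A/J GMA-SS replicate 3). Counts for fume at 16 weeks, GMA-SS against GMA-MS, strain differences and time differences were 0 in every setting and 0 to 0 with 1 array left out. The block changed no other call of a member. The mean r among Hspa5, Pdia4 and Hyou1 over both times pooled was 0.36 with beadchip means removed. Near-zero Creld2 values turned with 1 array left out: the B6 GMA-SS time difference (0.01, and 0.00 under scaling) ran between -0.05 and 0.10, the B6 GMA-MS time difference between -0.03 and 0.17, the A/J GMA-SS difference at 16 weeks between -0.09 and 0.02, and A/J GMA-SS minus GMA-MS at 4 weeks (-0.04) between -0.08 and 0.03. Hyou1 between sham strains at 16 weeks turned to -0.23 under scaling. The cause was not tested. Manf lay below detection, so no difference in it was measurable.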
